A study of Mus musculus with 4 samples.

Results

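The plasminogen system and the matrix metalloproteinases were examined through 9 genes in lists of accessible chromatin from NMuMG cells, an established epithelial line from normal mouse mammary gland. The genes were Plau, Plaur, Plat, Mmp2, Mmp9, Mmp14, Timp1, Timp2 and Timp3, out of 22350 protein-coding genes on chromosomes 1 to 19 and X. Accessibility was measured by ATAC-seq, which reads out where the Tn5 transposase can reach DNA between nucleosomes and tag it with adapters. The deposited files are peak lists without read counts, so no depth can be attached to a single region. The read totals in the study's reporting summary put both complete-medium libraries at similar depth, with TGFβ slightly the shallower.

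The labels give 4 samples, 1 per group. In the main comparison, cells in complete medium, with serum and insulin, received TGFβ1 at 5 ng per ml or its vehicle, HCl with bovine serum albumin, for 2 h. In the other experiment, serum and insulin were withdrawn for 6 h before the cells received TGFβ1 at 5 ng per ml or vehicle for 10 min. That experiment has 1 list, which the labels attach to both of its samples, so vehicle and TGFβ cannot be compared in it. The 10 min list differs from the complete-medium lists in time, medium and library together, and these cannot be told apart. For the TGFβ sample of the 10 min experiment a label field gives 2 h while the title gives 10 min, and the title was followed.

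A region is called here where an interval of at least 150 bp was listed, with intervals less than 1000 bp apart joined. The lists then held 19648 regions with vehicle, 38532 with TGFβ and 26732 at 10 min. A region counted for a gene when it lay at a start site, within 1000 bp of any annotated start of the gene, or in its locus, the gene body with 20 kb on each side. A region missing from a list was not called there, which is not a measure of closed chromatin. No condition has more than 1 list, so no replicate error can be given and no test was made between conditions. Intervals on shares are 95% Wilson intervals, that on the ratio of counts is exact, and both cover counting error only. As a check of the cell label, the epithelial keratin genes Krt8 and Krt18 had a start site region in all 3 lists. Cdh1 had one at 10 min alone, and Epcam and Cldn7 had none in any list. None of 6 marker genes of blood, endothelial, liver and neuronal cells had a start site region in any list.

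Plasminogen is a secreted zymogen that the activators uPA (Plau) and tPA (Plat) cleave to plasmin, a serine protease that degrades fibrin and matrix proteins. The receptor uPAR (Plaur) holds uPA at the cell surface. Matrix metalloproteinases (MMPs) are zinc proteases that are also made as inactive precursors, and the TIMP proteins inhibit them. MMP14 is anchored in the membrane and, together with TIMP2, activates MMP2, a gelatinase like MMP9. TGFβ signals through SMAD transcription factors, and protease and inhibitor genes of this kind are known for their part in epithelial-mesenchymal transition and matrix remodeling.

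The sequences that the findings turn on are given first, all from mm9 and on the plus strand, which is the sense strand of each of these genes. Timp1 and Timp3 were the members with a start site region with TGFβ and none with vehicle, and the listed stretch before the start is shown, with the single AGGAAG match in capitals.
Timp1, chrX:20447137-20447291: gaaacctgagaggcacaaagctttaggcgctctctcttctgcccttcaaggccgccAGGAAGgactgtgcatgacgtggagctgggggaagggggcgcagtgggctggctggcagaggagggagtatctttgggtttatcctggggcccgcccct
Timp3, chr10:85765559-85765598: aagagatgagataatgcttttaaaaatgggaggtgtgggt
Plau and Mmp14 had a region at the start in the 10 min list alone, and the listed stretch before each start is shown with none of the searched motifs in it. These stretches, and those of Plaur and Timp3 below, were chosen after their values were seen.
Plau, chr14:21655798-21655883: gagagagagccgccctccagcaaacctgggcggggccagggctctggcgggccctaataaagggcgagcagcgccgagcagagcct
Mmp14, chr14:55050242-55050440: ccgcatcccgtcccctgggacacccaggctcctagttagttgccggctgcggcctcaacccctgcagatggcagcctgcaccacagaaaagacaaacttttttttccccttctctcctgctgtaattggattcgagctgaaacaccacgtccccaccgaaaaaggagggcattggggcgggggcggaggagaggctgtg
The AP-1 consensus, TGACTCA or TGAGTCA, is in capitals in the stretches of 67 bp that follow. Plaur is shown because 5 of the 10 AP-1 matches inside listed regions of these loci lay there, and Plat because it held the only such match in a region found with TGFβ and not with vehicle. The Timp3 stretch holds the AP-1 match of a region present in all 3 lists.
Plaur, chr7:25234357-25234423: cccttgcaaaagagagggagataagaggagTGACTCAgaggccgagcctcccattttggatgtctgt
Plaur, chr7:25234411-25234477: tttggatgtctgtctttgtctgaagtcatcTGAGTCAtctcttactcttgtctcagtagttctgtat
Plaur, chr7:25244563-25244629: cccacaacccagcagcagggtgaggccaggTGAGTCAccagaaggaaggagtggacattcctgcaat
Plaur, chr7:25247403-25247469: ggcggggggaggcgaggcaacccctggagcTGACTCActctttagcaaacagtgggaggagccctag
Plaur, chr7:25255542-25255608: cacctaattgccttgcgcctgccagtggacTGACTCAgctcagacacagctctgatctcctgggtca
Plat, chr8:23876321-23876387: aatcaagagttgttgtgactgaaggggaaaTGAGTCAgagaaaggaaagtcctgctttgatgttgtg
Timp3, chr10:85802392-85802458: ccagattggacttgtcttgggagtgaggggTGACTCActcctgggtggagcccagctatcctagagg

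Across the 9 loci, which cover 564 kb, 18 regions were listed with vehicle, 29 with TGFβ and 29 at 10 min. The ratio of TGFβ to vehicle was 1.61 (95% interval 0.865 to 3.08), beside 1.96 (1.93 to 2.00) over all regions of the lists, so the interval for these loci includes that of the whole lists. When the TGFβ list was cut to as many regions as the vehicle list by score and then width, 15 TGFβ regions were left and the ratio was 0.833. The region widths over the loci summed to 6.70 kb with vehicle, 13.5 kb with TGFβ and 15.2 kb at 10 min. These widths include the gaps between joined intervals. The ratio of the sums between TGFβ and vehicle was 2.02, beside 1.89 for all regions. Pooled over total locus length, there were 3.19 regions per 100 kb here against 1.5 over all protein-coding genes with vehicle. The pooled values were 5.14 against 2.54 with TGFβ and 5.14 against 2.02 at 10 min. Long genes weigh more in such a pooled value. The median locus held 1 vehicle region here and 1 over all genes, 3 and 2 with TGFβ, and 3 and 1 at 10 min.

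**Figure D1:**
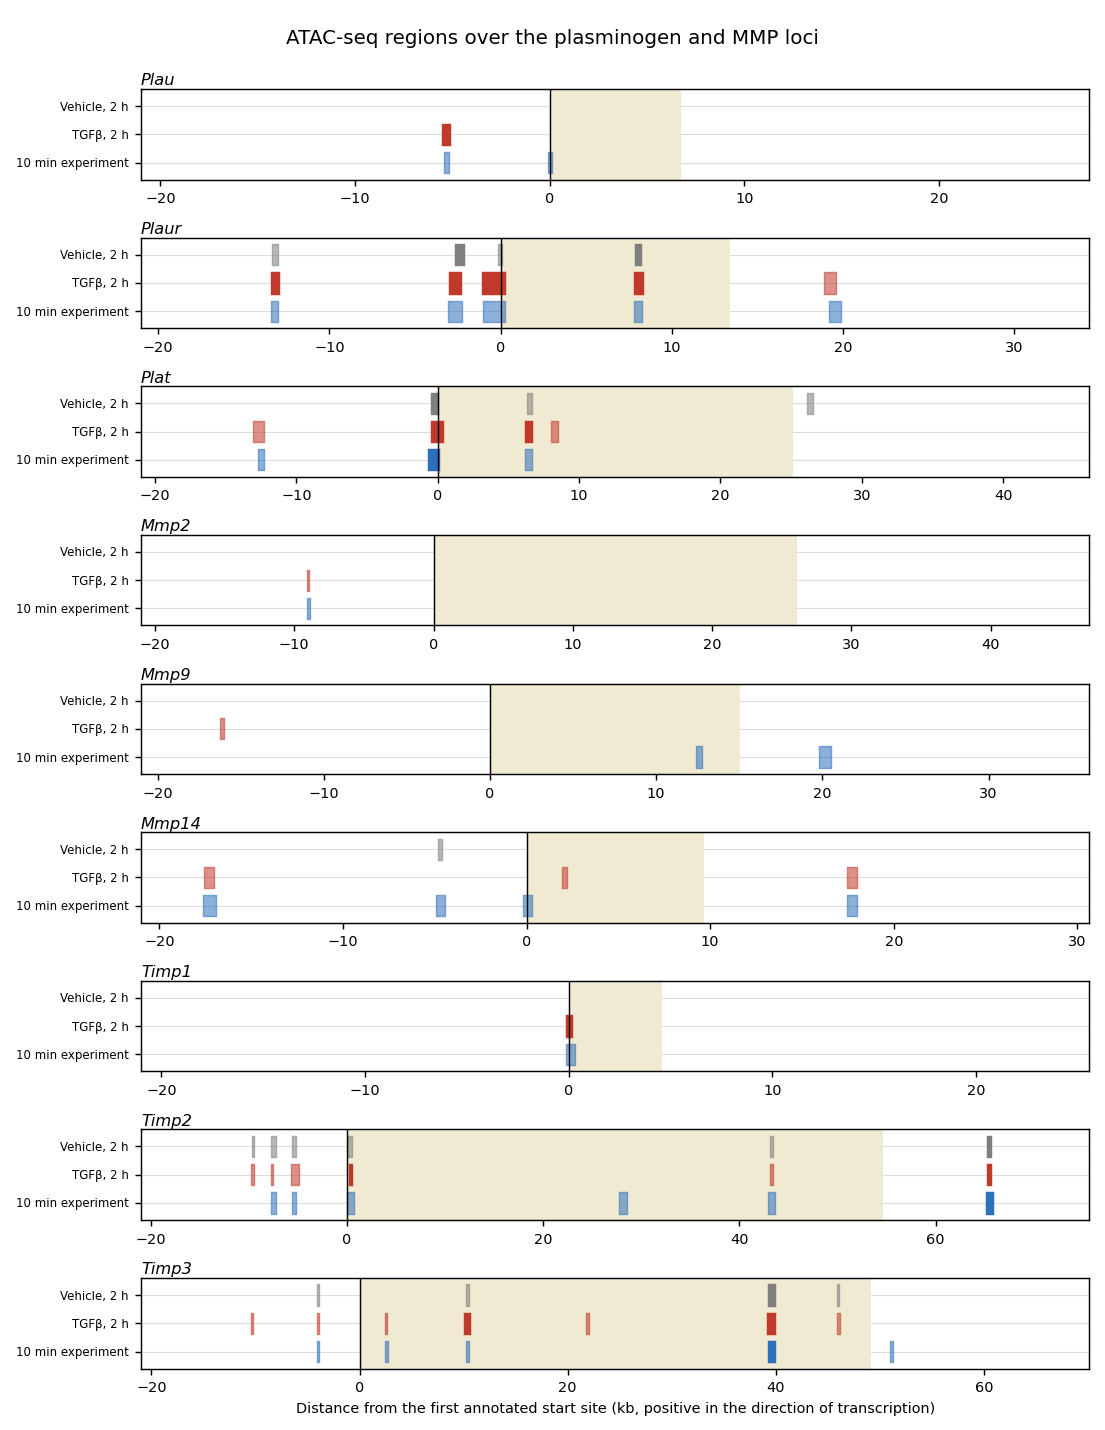
Regions over each gene, drawn to scale by distance from the first annotated start (black line; kb, positive along transcription), with the gene body shaded, 1 row per list, and solid bars for regions at the highest score of 1000. The vehicle rows of Plau, Mmp2, Mmp9 and Timp1 are empty, while every gene has at least 1 region with TGFβ and at 10 min.

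Of the 29 TGFβ regions, 13 were absent from the vehicle list (44.8%, 28.4 to 62.5%), against 52.4% of all TGFβ regions. Of the 18 vehicle regions, 2 were absent from the TGFβ list (11.1%, 3.10 to 32.8%), against 6.44% of all vehicle regions. Both intervals include the share of the whole list. By gene, 8 of 9 loci (88.9%, 56.5 to 98.0%) had a region found with TGFβ and not with vehicle, against 50.2% of all protein-coding genes. Timp2 was the exception. Such a share by gene depends on the number of regions per locus, and the median locus held 3 TGFβ regions here and 2 over all genes. A region found with vehicle and not with TGFβ was present in 2 loci, Plat and Mmp14 (22.2%, 6.32 to 54.7%), against 6.93% of genes. All 9 loci held a TGFβ region and all 9 a 10 min region (each 70.1 to 100%), beside 73.6% and 68.8% of genes. A vehicle region was in 5 loci (55.6%, 26.7 to 81.1%), beside 63.1%. The 4 loci with a TGFβ region and no vehicle region (44.4%, 18.9 to 73.3%) were Plau, Mmp2, Mmp9 and Timp1. Of all genes, 11.1% had that pattern. Each of these 4 loci held exactly 1 TGFβ region.

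**Figure D2:**
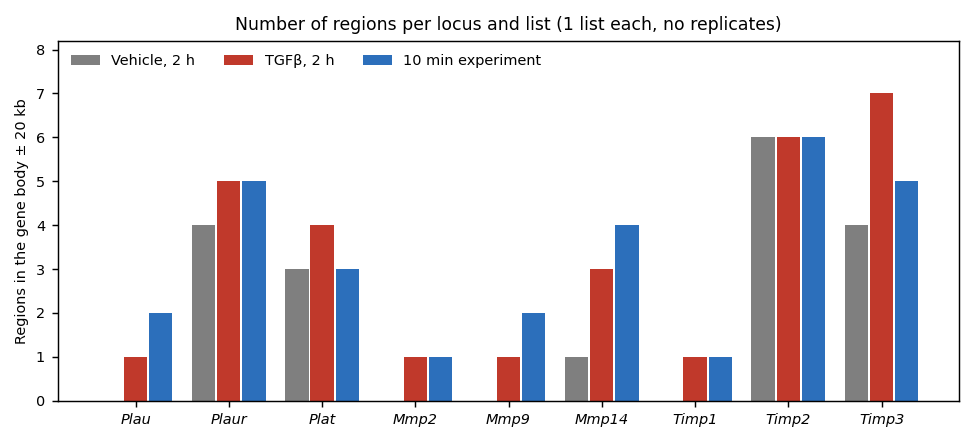
Number of regions in the gene body with 20 kb on each side (y axis) for the 9 genes (x axis) and 3 lists (colors), 1 bar per list with no error bar. Timp2 had 6 regions in every list, and Timp3 had 4 with vehicle, 7 with TGFβ and 5 at 10 min.

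At the start sites, 3 of 9 genes had a region with vehicle (33.3%, 12.1 to 64.6%), 5 with TGFβ (55.6%, 26.7 to 81.1%) and 8 at 10 min (88.9%, 56.5 to 98.0%). The shares over all protein-coding genes were 41.0%, 47.6% and 46.3%. Plaur, Plat and Timp2 made up the vehicle set, TGFβ added Timp1 and Timp3, and the 10 min list further added Plau, Mmp9 and Mmp14. A start site region with TGFβ and none with vehicle was found for 7.24% of all genes, and one in the 10 min list alone for 1.35%, against 2 and 3 of these 9 genes. The 3 genes of the 10 min list alone had low scores there, between 554 and 711, and none of them passed when each list was limited to scores at or above its median. The score runs from 540 to 1000 and is a scaled irreproducible discovery rate (IDR), which by its definition rises with agreement between replicates. The series text speaks of duplicates while the labels give 1 sample per group, so what was set against what for these scores is not known here. Mmp2 had no start site region in any list.

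**Figure D3:**
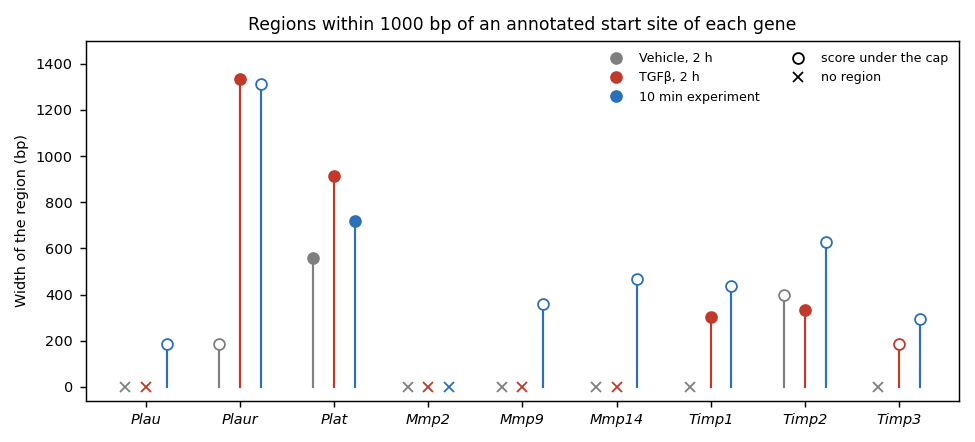
Width in bp (y axis) of the region within 1000 bp of an annotated start of each gene (x axis) in the 3 lists (colors), with filled circles for scores of 1000, open circles for lower scores and crosses where no region was listed. Only Plaur, Plat and Timp2 have a circle in all 3 lists, and the widest regions are the 1334 bp with TGFβ and 1311 bp at 10 min at Plaur.

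Plau encodes urokinase (ENSMUSG00000021822.2, chr14:21655884-21662610, plus strand). Its locus held 0 regions with vehicle, 1 with TGFβ and 2 at 10 min. The TGFβ region was intergenic, 5321 bp upstream of the start at chr14:21650374-21650751, with a width of 378 bp and the highest possible score of 1000. The same site was listed at 10 min with a width of 262 bp and a score of 595. At the start itself no interval of any width was listed with vehicle or with TGFβ, and the 10 min list held a region of 185 bp with a score of 696. In the vehicle list the region nearest to the start lay 30974 bp away.

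Plat encodes the tissue-type activator (ENSMUSG00000031538.5, chr8:23868216-23893319, plus strand) and differed from Plau in having its start site listed at the highest score throughout. The start site region measured 559 bp with vehicle, 913 bp with TGFβ and 721 bp at 10 min, with a score of 1000 in each. The TGFβ region joined an interval of 587 bp with one of 243 bp inside the gene. At that inner position the 10 min list had an interval of 115 bp, under the width minimum, and the vehicle list had none. An intronic region 6415 bp downstream of the start was also in all 3 lists, at scores of 815, 1000 and 791. With TGFβ and not with vehicle, Plat had an intergenic region 12701 bp upstream (746 bp wide, score 798, also listed at 10 min) and an intronic region 8275 bp downstream (485 bp, score 579, in no other list), which carries the AP-1 match shown above. In the other direction, a vehicle region of 446 bp just beyond the gene end, chr8:23894338-23894783, had a score of 557 and was in no other list.

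Plaur encodes the urokinase receptor (ENSMUSG00000046223.9, chr7:25247519-25260892, plus strand), and 4 of its sites were shared by all 3 lists. Its start site region was 186 bp with vehicle at a score of 687, 1334 bp with TGFβ at 1000 and 1311 bp at 10 min at 894. The TGFβ region was 7.17 times as wide as the vehicle region, above the ratio of 99.8% of the 18298 TGFβ regions overlapping exactly 1 vehicle region. This width came from an additional upstream interval that the joining rule attached. With TGFβ the interval over the start was 396 bp and the upstream one 240 bp with a score of 936, and at 10 min they were 439 bp and 573 bp. With vehicle no upstream interval was listed. The other shared sites of Plaur lay 13182 bp and 2660 bp upstream and in an intron 8040 bp downstream by their TGFβ centers, and all 3 had a score of 1000 with TGFβ. With vehicle their scores were 884, 1000 and 1000, and at 10 min 861, 767 and 898. The fifth TGFβ region of the locus, 709 bp wide with a score of 994, lay at the start of the neighboring gene Cadm4, was absent with vehicle and was present at 10 min.

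All 4 of the shared Plaur regions held AP-1 matches in the TGFβ list when searched over their whole width. Each held 1 match except the region farthest upstream, which held 2. Over whole regions, AP-1 matched 7 of the 29 TGFβ member regions (24.1%, 12.2 to 42.1%) and 36.2% of all TGFβ regions. Within 200 bp of the center, the Plaur regions 13182 bp upstream and 8040 bp downstream matched. The region 2660 bp upstream and the start site region did not. Of the 5 matches, 4 also lay inside the vehicle region. The match 2923 bp upstream of the start lay inside the TGFβ and 10 min regions, whose upstream edges reached chr7:25244529 and chr7:25244471, and outside the vehicle region, which began at chr7:25244845. A match to letters describes the sequence and does not show binding.

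Mmp2, Mmp9 and Mmp14 had no start site region in either complete-medium list. Mmp2, encoding gelatinase A (ENSMUSG00000031740.7, chr8:95351227-95377316, plus strand), had 0, 1 and 1 regions with vehicle, with TGFβ and at 10 min. Its site was intergenic, 9002 bp upstream, with a width of 191 bp and a score of 940 with TGFβ and 195 bp and 565 at 10 min. An annotated start of another gene was nearer, 1726 bp from the TGFβ region. The nearest vehicle region to the Mmp2 start lay 469 kb away. Mmp9, encoding gelatinase B (ENSMUSG00000017737.2, chr2:164766280-164781350, plus strand), had 0, 1 and 2 regions. The TGFβ region was intergenic, 16109 bp upstream, with a width of 245 bp and a score of 835, and was not listed at 10 min. This region, too, lay nearer to an annotated start of another gene, at 10459 bp. The 10 min regions of Mmp9 were at other sites. One, 360 bp wide with a score of 554, lay over a coding exon 12562 bp inside the gene and counted as a start site region only through an internal noncoding transcript start 865 bp away. It no longer counted when starts of protein-coding transcripts alone or a window of 200 bp were used. The other lay at the start of the neighboring gene Slc12a5, with a width of 740 bp and a score of 676.

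Mmp14 encodes the membrane-type protease MT1-MMP (ENSMUSG00000000957.8, chr14:55050441-55060095, plus strand) and had 1 region with vehicle, 3 with TGFβ and 4 at 10 min. No site was shared by the vehicle and TGFβ lists. The vehicle region, 205 bp with a score of 590, lay at the start of the neighboring gene Mrpl52 and was also listed at 10 min, with a score of 592. With TGFβ, 1 region was intronic, 2067 bp downstream of the start (246 bp, score 566), and was in no other list. The other TGFβ regions lay at the start of Slc7a7, 17287 bp upstream with a score of 955, and near a U6 gene 17730 bp downstream with a score of 628, and both were also listed at 10 min. The Mmp14 start itself had a region of 468 bp with a score of 711 at 10 min and no interval of any width in either complete-medium list.

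Of the inhibitor genes, Timp2 had the same sites with vehicle and TGFβ, while Timp1 and Timp3 had further ones with TGFβ. Timp1 (ENSMUSG00000001131.5, chrX:20447292-20451861, plus strand), whose product inhibits most secreted MMPs, lies inside an intron of Syn1. Its locus held 0 regions with vehicle and 1 with TGFβ, which lay over the start with a width of 301 bp and a score of 1000. At 10 min the start site region was 437 bp with a score of 917. The nearest vehicle region was 52819 bp from the start. Together with the site upstream of Plau, it was 1 of 2 regions with the highest score among the 13 found with TGFβ and not with vehicle.

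Timp2 (ENSMUSG00000017466.3, chr11:118162383-118217054, minus strand), the inhibitor that takes part in MMP2 activation, had 6 regions with vehicle and 6 with TGFβ, at the same 6 sites. The start site region was 397 bp with a score of 706 with vehicle, 334 bp with a score of 1000 with TGFβ, and 630 bp with a score of 946 at 10 min. The region at the start of the neighboring gene Usp36 had a score of 1000 in all 3 lists. Between these, an intronic site 43283 bp downstream of the start had scores of 634, 585 and 814 in the same order. Upstream, the sites at 5303 bp, 7642 bp and 9626 bp scored 611, 887 and 647 with vehicle and 850, 543 and 843 with TGFβ, and the 10 min list held the nearer pair. An intronic region of 761 bp was listed at 10 min alone, with a score of 611.

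Timp3 (ENSMUSG00000020044.7, chr10:85763117-85812251, plus strand) encodes an inhibitor that is bound to the extracellular matrix, and it lies inside Syn3. It had 4 regions with vehicle, 7 with TGFβ and 5 at 10 min. The start site region was at an alternative start, 2535 bp downstream of the annotated start farthest upstream, with a width of 186 bp and a score of 778 with TGFβ and 295 bp and 588 at 10 min. It had no vehicle interval of any width. The TGFβ region of this start did not pass a width minimum of 300 bp, a limit at the median score or the cut to equal list length, whereas that of Timp1 passed each of them. The other regions found with TGFβ and not with vehicle were intronic, 10314 bp upstream in Syn3 (236 bp, score 560) and 21907 bp downstream (207 bp, score 599), and neither was listed at 10 min. Of the 3 sites shared by all lists, the one 39560 bp downstream scored 1000 in each list and carries the AP-1 match shown above. The site 10345 bp downstream scored 847 with vehicle, 1000 with TGFβ and 895 at 10 min, and the site 4023 bp upstream scored 689, 715 and 606. A site 46009 bp downstream, over an untranslated region of Timp3, was listed with vehicle (580) and TGFβ (675) only.

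The 16 TGFβ regions also called with vehicle, all in the Plaur, Plat, Timp2 and Timp3 loci, were 1.25 times as wide with TGFβ by the median (quartiles 1.14 and 1.47), and 14 of 16 were wider. Over the 18298 TGFβ regions that overlapped exactly 1 vehicle region, of 18348 shared, the median ratio was 1.11 (0.943 to 1.49) and 66.0% were wider. The exceptions were both at Timp2, where the start site region had a ratio of 0.84 and the site 7642 bp upstream a ratio of 0.51. Width also depends on how many neighboring intervals were joined. With only touching intervals joined, an alternative chosen after seeing the data, the median ratio over these loci was 1.17. The ratio over all regions was not computed for that alternative.

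**Figure D4:**
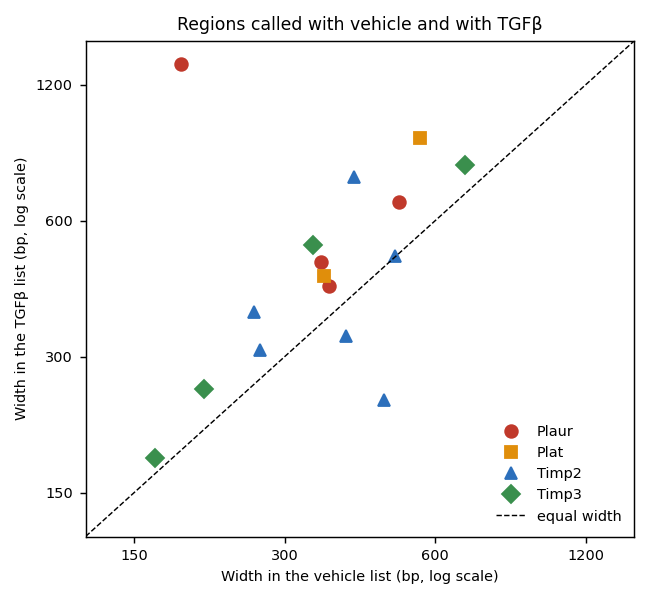
Width with TGFβ (y axis) against width with vehicle (x axis), both in bp on log scales, for the 16 regions in both lists, by gene. Points above the dashed line were wider with TGFβ, which holds for 14 of 16, and the Plaur start site region stands farthest from the line.

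With TGFβ, 10 of the 16 shared regions were at the highest score (62.5%) and 2 of the 13 that were absent with vehicle (15.4%), and the median widths were 469 bp and 301 bp. The whole TGFβ list had the same pattern, with 71.6% and 13.9% at the highest score and median widths of 546 bp and 281 bp. Over all member regions the highest score was reached by 5 of 18 with vehicle (27.8%, 12.5 to 50.9%), 12 of 29 with TGFβ (41.4%, 25.5 to 59.3%) and 3 of 29 at 10 min (10.3%, 3.58 to 26.4%). Over all regions these shares were 38.2%, 41.4% and 29.9%, so the TGFβ share was that of the whole list. The lists were scored separately, so scores compare sites within a list more directly than between lists.

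Most regions were away from any start. With vehicle, 3 regions lay at a start of the 9 genes, 2 at a start of a neighbor and 13 at none. With TGFβ these numbers were 5, 4 and 20, and at 10 min 8, 6 and 15. The share at no start was 72.2% with vehicle (49.1 to 87.5%), 69.0% with TGFβ (50.8 to 82.7%) and 51.7% at 10 min (34.4 to 68.6%), beside 55.1%, 71.6% and 61.6% of all regions, which each interval includes. Of the 29 TGFβ regions, 22 were also listed at 10 min (75.9%, 57.9 to 87.8%), against 59.8% of all TGFβ regions. Of the 13 TGFβ regions absent with vehicle, 8 were listed at 10 min (61.5%, 35.5 to 82.3%), against 31.5%. Most of these 8 lay at a start, namely of Timp1, Timp3 and the neighbors Cadm4, Slc7a7 and U6. Only the regions upstream of Plau, Plat and Mmp2 lay at none. The share over all regions was not split by position. In the reverse direction, 6 of 29 regions of the 10 min list were in neither complete-medium list (20.7%, 9.85 to 38.4%), against 12.2%. Joined over the lists there were 37 sites, of which 14 were in all 3 lists, 8 with TGFβ and at 10 min, 6 at 10 min alone, 5 with TGFβ alone, 2 with vehicle and TGFβ, 1 with vehicle and at 10 min and 1 with vehicle alone.

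CpG content was measured around the first annotated start of each gene, from 250 bp before to 50 bp after it. The ratio of observed to chance CpG was under 0.6 for 8 of the 9 genes, between 0.21 and 0.56. Of all protein-coding genes, 12255 were under 0.6 and 10094 at or above it, with a median of 0.535. Plau was above that median. Timp3, at 0.70, was above the threshold of 0.6. No list held a region within 1000 bp of that first start, and the Timp3 start site region lay at an alternative start downstream. Among the 12255 protein-coding genes under that threshold, 14.3% had a region within 1000 bp of the first start with vehicle, 19% with TGFβ and 17.5% at 10 min, and for the 10094 genes at or above it the shares were 67.9%, 75.5% and 74.9%. Plaur, Plat and Timp2, with ratios of 0.26, 0.41 and 0.21, had such a region in every list. At Timp2, however, the regions began 72, 187 and 31 bp downstream of the first start with vehicle, with TGFβ and at 10 min. The Timp2 ratio was thus measured largely on other DNA. GC within 200 bp of those region centers was 69.1, 70.6 and 70.8%, beside 56.5% in the measured window.

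Both strands were searched up to 200 bp from each region center for the AP-1 consensus above, the SMAD box CAGACA, the SMAD palindrome GTCTAGAC, the ETS consensus CCGGAAGT, the related AGGAAG and the CTCF core. CCGGAAGT and AGGAAG share the letters GGAAG, and CAGACA and GTCTAGAC share AGAC, though the same bases cannot match both members of either pair in 1 frame. Among distal TGFβ regions, those at no start, AP-1 matched 4 of 20 over these loci (20%, 8.07 to 41.6%) against 41.2% of all 27584, which the interval just includes. CAGACA matched 13 of 20 (65.0%, 43.3 to 81.9%) against 39.8%, and AGGAAG 14 of 20 (70.0%, 48.1 to 85.5%) against 47.7%. The AP-1 share was 3 of 13 with vehicle (8.18 to 50.3%, against 44.3%) and 3 of 15 at 10 min (7.05 to 45.2%, against 39.7%), and both intervals include the background. With a window of 500 bp all 3 motifs were nearer to theirs with TGFβ, AP-1 at 9 of 20 (25.8 to 65.8%) against 49.9%, CAGACA at 16 of 20 (58.4 to 91.9%) against 67.3% and AGGAAG at 17 of 20 (64.0 to 94.8%) against 76.8%, and each interval included the background. Mean GC of the distal TGFβ regions was 51.5% over these loci and 46.9% over all, and its part in the motif shares was not tested. The SMAD palindrome and the ETS consensus matched none of the 29 TGFβ regions, beside 0.633% and 2.78% of all TGFβ regions, and CTCF matched 1, at the alternative start of Timp3, beside 3.35%.

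**Figure D5:**
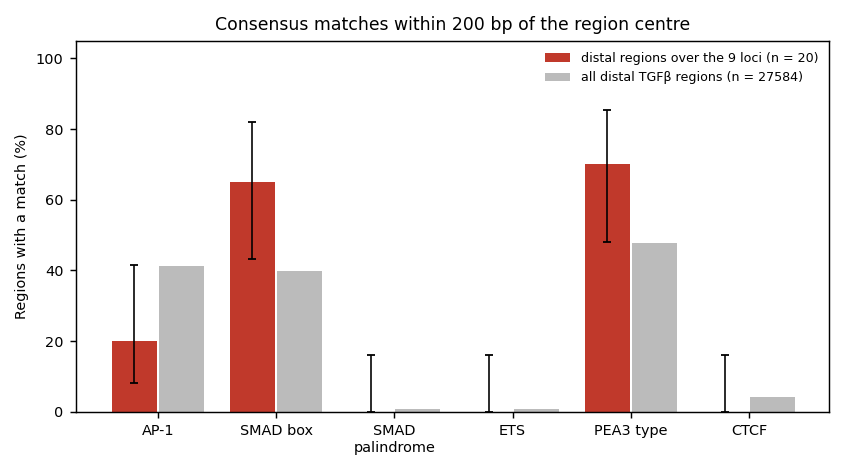
Share of distal TGFβ regions (%, y axis) with at least 1 match to each consensus (x axis) over the 9 loci (red, with 95% Wilson intervals) and over all distal TGFβ regions (grey). The AP-1 bar is below its background at 20% against 41.2%, and the intervals of all bars are wide because 20 regions entered.

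The wider pathway was described over 43 further genes. Of these, 17 had a start site region with vehicle, 21 with TGFβ and 16 at 10 min, which is 39.5%, 48.8% and 37.2%, beside the 41.0%, 47.6% and 46.3% of all genes. Their loci held 59, 118 and 84 distinct regions, none shared with the loci of the 9 genes, and 61 of the 118 TGFβ regions were absent with vehicle (51.7%). A start site region was found with TGFβ and not with vehicle for 4 genes (9.30%, beside 7.24% of all genes). None had the reverse pattern, whose share over all genes was not computed, so nothing is drawn from its absence.

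Of 7 genes for plasminogen and its receptors, 6 had a start site region in every list. Among them were S100a10 and Anxa2, subunits of a plasminogen receptor, and the uPA-binding endocytic receptor Lrp1. Plg itself, a liver-expressed gene, had none. Over all genes the single lists gave 41.0% with vehicle, 47.6% with TGFβ and 46.3% at 10 min. The share of all genes in every list was not computed.

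Of 15 secreted MMP genes, 3 had a start site region with vehicle, 6 with TGFβ and 1 at 10 min. Over all genes these shares were 41.0%, 47.6% and 46.3%. The secreted MMP genes with TGFβ and not with vehicle were Mmp12, macrophage elastase, at a score of 1000, Mmp21 at 657 and Mmp19 at 540. Of all genes, 7.24% had that pattern. Mmp13, a collagenase, was listed in every list at 937, 1000 and 1000, and Mmp10, a stromelysin, with vehicle at 582 and with TGFβ at 1000. Among 5 membrane-type MMP genes, Mmp24 had a start site region with TGFβ alone at a score of 1000, Mmp17 had one in every list, and Mmp15 had one at 10 min alone at 608. None of these 4 genes with a start site region with TGFβ and not with vehicle was listed at the start at 10 min. Timp1 and Timp3 were both listed there. The share over all genes of that pattern was not computed, so no contrast is drawn from these counts. Of the other inhibitors, Timp4 and Reck, a membrane-anchored MMP inhibitor, had no start site region in any list, and Bsg, an inducer of MMPs, had one at 1000 in each. Among 8 adamalysins, 5 had a start site region in every list, a share that was not computed over all genes. Adam12 had none but held 8 regions with TGFβ, all absent with vehicle, and 1 at 10 min.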

How the data were processed

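ATAC-seq peak lists of NMuMG cells were analyzed, 3 lists for 4 samples, with 1 list shared by both 10 min samples. Per the labels and the study's methods, the authors mapped reads to mm9, called peaks with MACS2 2.1.2 and filtered them by irreproducible discovery rate (IDR). Each deposited list gives intervals and a score, the scaled IDR value with a cap of 1000, whose lowest value corresponds to an IDR of 0.05. Replicate values, read counts and signal were not analysed here.

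Intervals under 150 bp were dropped, and those less than 1000 bp apart were joined. A site counted as shared between lists when regions overlapped by 1 bp or more. Genes and start sites came from GENCODE vM1, and sequences from the NCBIM37 genome, whose chromosome ends no interval exceeded. Analysis used python 3.11.15, numpy 2.4.6 and scipy 1.17.1, and counting was tested on simulated intervals. No differential test was made. The named genes are the 9 members, with every region at their starts, every region in only 1 of the vehicle and TGFβ lists, and those in all 3 lists. Members, pathway genes and markers were chosen with earlier results of these data known. Results for a further gene group of the pathway are not reported here. Alternatives were the width minimum, joining, start window, transcript set, flank, score limit, list length and motif window.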

Additional observations from a re-analysis of the deposited data

How the results depend on the processing

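No paired analysis was possible because there was 1 list for each complete-medium group and 1 for both 10 min groups together. In all, 107 values of 19 results were recomputed, 77 stayed within their interval or within 1.5 times, and 30 moved. With a width minimum of 300 bp the loci held 11 vehicle and 18 TGFβ regions, 8 were found with TGFβ and not with vehicle, in 5 loci, and 1 the other way round. With scores at or above each list's median, a start site region remained for 1 gene with vehicle and 4 at 10 min, and the regions numbered 5 with vehicle, 13 with TGFβ and 8 at 10 min, with 69.2% of TGFβ regions absent with vehicle and 1 vehicle region absent with TGFβ. With the TGFβ list cut to as many regions as the vehicle list by score and then width, 15 TGFβ regions were left, a ratio of 0.833 to vehicle, and 5 were absent with vehicle, in 5 loci, and 100% of the TGFβ regions were also listed at 10 min. A start window of 5000 bp gave 5 genes with vehicle. Without flanks the counts were 9, 14 and 14 regions, with 5 found with TGFβ and not with vehicle, in 4 loci, and 0 the other way round. A flank of 50 kb gave 31, 56 and 46 regions and 27 absent with vehicle. AP-1 matched 10 TGFβ regions within 500 bp and 7 over the whole region. At equal list length the loci thus held 15 TGFβ and 18 vehicle regions. No direction is drawn from these counts, as no interval was computed for their ratio. The cut also kept the highest TGFβ scores while vehicle regions of every score stayed. The lists hold no signal below the caller's threshold, so a site missing from a list could not be told from one too weak to be called, and with 9 genes the intervals on all shares are wide.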
